A study of Mus musculus with 32 samples.

Results

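Saa1, Saa2, Saa3, Lcn2, Hp, Cp, Slpi, Ptx3 and Serpina3n encode secreted proteins of the acute-phase response, and their RNA was followed in mouse chondrocytes given the cytokine IL-1β. The 9 genes were taken by symbol, matched to the Ensembl identifiers of the count tables, and are 9 of 41388 genes counted. Their values below are described in every genotype and treatment of the series.

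Acute-phase proteins are plasma proteins whose amounts change during inflammation. The liver is their best known source, where IL-6 and IL-1 act through STAT3, C/EBP and NF-κB factors, but many of them are also made at the inflamed site. Saa1, Saa2 and Saa3 encode serum amyloid A apolipoproteins, of which Saa3 is the form made mainly outside the liver. Lcn2 encodes lipocalin-2, which binds iron-loaded siderophores, Hp encodes haptoglobin, which binds free haemoglobin, and Cp encodes ceruloplasmin, a copper-carrying ferroxidase. Slpi and Serpina3n encode protease inhibitors, and Ptx3 encodes a long pentraxin of innate immune recognition. Nfkbiz encodes IκBζ, a nuclear IκB protein that IL-1 itself induces and that is known as a co-regulator of NF-κB target genes such as Lcn2 and Il6.

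The promoter windows of 5 of the genes are shown because the genes fall into different groups in the results below. Under IL-1β, the levels of Saa3, Lcn2 and Slpi fell most with Cre virus where Nfkbiz was the floxed gene. Those of Ptx3 and Cp fell more where Ldha or Nampt was. These are falls in level, which include any Cre effect present without IL-1β. Each window runs from 250 bases before to 50 bases after the gene's start in RefSeq (GRCm38.p6), 5′ to 3′ on the gene's own strand. Capitals mark matches, on either strand, to the C/EBP motif TTNNGNAA and to the classical NF-κB consensus.
Saa3 (chr7:46715627-46715926, minus strand): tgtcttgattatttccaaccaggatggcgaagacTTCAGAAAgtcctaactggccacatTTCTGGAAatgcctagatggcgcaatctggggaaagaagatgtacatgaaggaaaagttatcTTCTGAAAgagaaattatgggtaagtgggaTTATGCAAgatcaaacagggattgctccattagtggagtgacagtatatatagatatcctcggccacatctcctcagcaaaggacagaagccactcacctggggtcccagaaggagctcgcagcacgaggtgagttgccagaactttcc
Lcn2 (chr2:32387690-32387989, minus strand): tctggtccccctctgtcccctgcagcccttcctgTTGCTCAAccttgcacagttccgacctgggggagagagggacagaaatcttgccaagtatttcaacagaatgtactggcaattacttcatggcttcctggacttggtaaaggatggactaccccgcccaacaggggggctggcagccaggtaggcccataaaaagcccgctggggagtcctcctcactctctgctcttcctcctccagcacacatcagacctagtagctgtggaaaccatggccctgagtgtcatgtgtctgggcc
Slpi (chr2:164356458-164356757, minus strand): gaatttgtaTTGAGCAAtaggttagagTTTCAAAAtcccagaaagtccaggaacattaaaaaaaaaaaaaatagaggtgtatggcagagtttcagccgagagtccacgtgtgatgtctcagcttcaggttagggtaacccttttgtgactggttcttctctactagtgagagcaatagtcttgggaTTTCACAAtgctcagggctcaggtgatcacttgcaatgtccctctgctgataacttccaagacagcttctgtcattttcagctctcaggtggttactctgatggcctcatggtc
Ptx3 (chr3:66219637-66219936, plus strand): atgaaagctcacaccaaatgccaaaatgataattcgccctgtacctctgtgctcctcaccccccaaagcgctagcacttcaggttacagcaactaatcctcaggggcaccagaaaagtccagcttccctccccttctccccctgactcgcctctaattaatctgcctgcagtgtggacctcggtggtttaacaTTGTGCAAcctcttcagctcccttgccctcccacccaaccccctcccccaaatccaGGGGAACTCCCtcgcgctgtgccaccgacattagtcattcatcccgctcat
Cp (chr3:19956804-19957103, plus strand): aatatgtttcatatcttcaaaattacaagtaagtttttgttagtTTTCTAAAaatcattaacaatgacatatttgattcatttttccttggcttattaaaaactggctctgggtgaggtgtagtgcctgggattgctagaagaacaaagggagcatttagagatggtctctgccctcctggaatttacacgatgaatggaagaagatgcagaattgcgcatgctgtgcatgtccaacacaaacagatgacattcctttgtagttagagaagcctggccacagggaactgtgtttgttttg
The RefSeq table held 9 windows for 8 of the 9 genes, Hp being the gene with none. Cp had a second window, chr3:19956999-19957298, which is not printed and held 1 C/EBP match and no AP-1 match. Below, a gene counts if any of its windows held the motif, whereas the shares are over single windows. The C/EBP motif was found in all 8, with 4 matches in Saa3, and in 40.7% of 32851 promoter windows of the same length. The NF-κB consensus was found in Ptx3 alone of the 8, as 2 overlapping matches over the start site, and in 8.46% of all windows. The STAT motif TTCNNNGAA was found in none of the 8 and in 8.3% of all windows, and the AP-1 motif TGANTCA was found in Cp alone and in 7.81% of all windows. These matches describe letters in the windows and no binding was measured. The 3 Saa genes lie close together on chromosome 7, Saa3 at chr7:46711998-46715700, Saa1 at chr7:46740497-46742980 and Saa2 at chr7:46751790-46754313. In the same build (GENCODE M21) Lcn2 lies at chr2:32384633-32388252, Slpi at chr2:164354070-164389095, Cp at chr3:19957054-20009145, Ptx3 at chr3:66219910-66225805, Hp at chr8:109575128-109579172 and Serpina3n at chr12:104406729-104414329.

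The counts came from primary chondrocytes of the sternum, isolated from C57BL/6 mice as pups and never passaged, in 32 libraries that make 16 groups of 2. Wild-type chondrocytes, which received no virus, were left untreated or kept for 24 h with IL-1β (10 ng/mL), with FX11 (40 µM), which inhibits the enzyme LDHA, or with the pair of them. Chondrocytes carrying floxed alleles of Ldha, Nampt or Nfkbiz (Ldha f/f, Nampt f/f, Nfkbiz f/f) were infected with adenovirus expressing GFP (GFP cultures) or Cre (Cre cultures) and then kept for 24 h without IL-1β or with the same dose of it. Cre virus was given to floxed cells alone, so that deletion of the gene and exposure to Cre virus cannot be told apart within a line. The 2 libraries of a group are not described as separate cultures or litters, and p-values therefore measure the spread between these libraries, which may be technical. By the style of their titles the libraries form 2 sets of 12 and 20, and the groups of wild type and of the Ldha and Nampt lines hold 1 of each, whereas all Nfkbiz f/f libraries are of set 2. Library totals ran from 15830658 to 39959888 counts. Levels are given as CPM, counts scaled by library size, with TMM factors over the 32 libraries.

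The deleted genes followed the labels of the floxed lines. Without IL-1β, Ldha stood at 937 and 876 CPM in GFP cultures of its line and at 119.8 and 111 CPM in Cre cultures. Nampt stood at 60.1 and 54.7 CPM in GFP cultures and at 6.77 and 6.80 CPM in Cre cultures. Nfkbiz fell less at this level, from 16.0 and 16.9 CPM to 9.55 and 8.18 CPM, and under IL-1β it stood at 233 and 228 CPM in GFP cultures against 29.1 and 31.95 CPM in Cre cultures. In wild type, 2 libraries of set 2 went against their labels. The library labelled FX11 held Lcn2 at 12645 CPM and Saa3 at 4348 CPM, whereas in that labelled IL-1β they stood at 17.3 and 0.639 CPM. Both keep their labels below, and results that rest on them are given with and without them.

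Defining chondrocyte transcripts were abundant, and those of the liver were nearly absent. The summed level of 14 chondrocyte markers was between 15334 and 110593 CPM in the 32 libraries, with Col2a1 and Acan among the 14. All 10 hepatocyte markers stayed under 1 CPM in every library and Ttr had 0 counts in all 32, so that their sum was at most 1.53 CPM. The sum of 10 neutrophil markers was between 3.86 and 59.4 CPM and that of 10 macrophage markers between 15.8 and 339 CPM, both highest in wild type. In GFP cultures of the floxed lines IL-1β went with a neutrophil sum of 10.9 to 31.8 CPM against 5.53 to 18.1 CPM without it, and with a macrophage sum of 28.7 to 54.7 CPM against 15.8 to 26.4 CPM. The sum of 6 fibroblast and perichondrium markers was larger than these, between 777 and 9828 CPM in the 32 libraries. In GFP cultures it was between 777 and 4487 CPM with IL-1β and between 1021 and 5989 CPM without it. That of 7 skeletal muscle markers was between 2.55 and 249 CPM in the 32 libraries. The part of such cells in the results was not tested. Fewer cells of a type and less RNA per cell cannot be told apart in these bulk libraries.

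IL-1β raised all 9 acute-phase genes in GFP cultures. The question of this comparison is what the cytokine does where the floxed gene is intact, with 6 libraries with and 6 without IL-1β over the 3 lines. All 9 genes were higher (9 of 9), where 28.0% of 14283 genes tested were higher, and their median log2 fold change was 7.04 against -0.01 over all genes. For 7 of the 9 genes the log2 fold change was above 2.8. Cp and Ptx3 rose less.

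**Figure D1:**
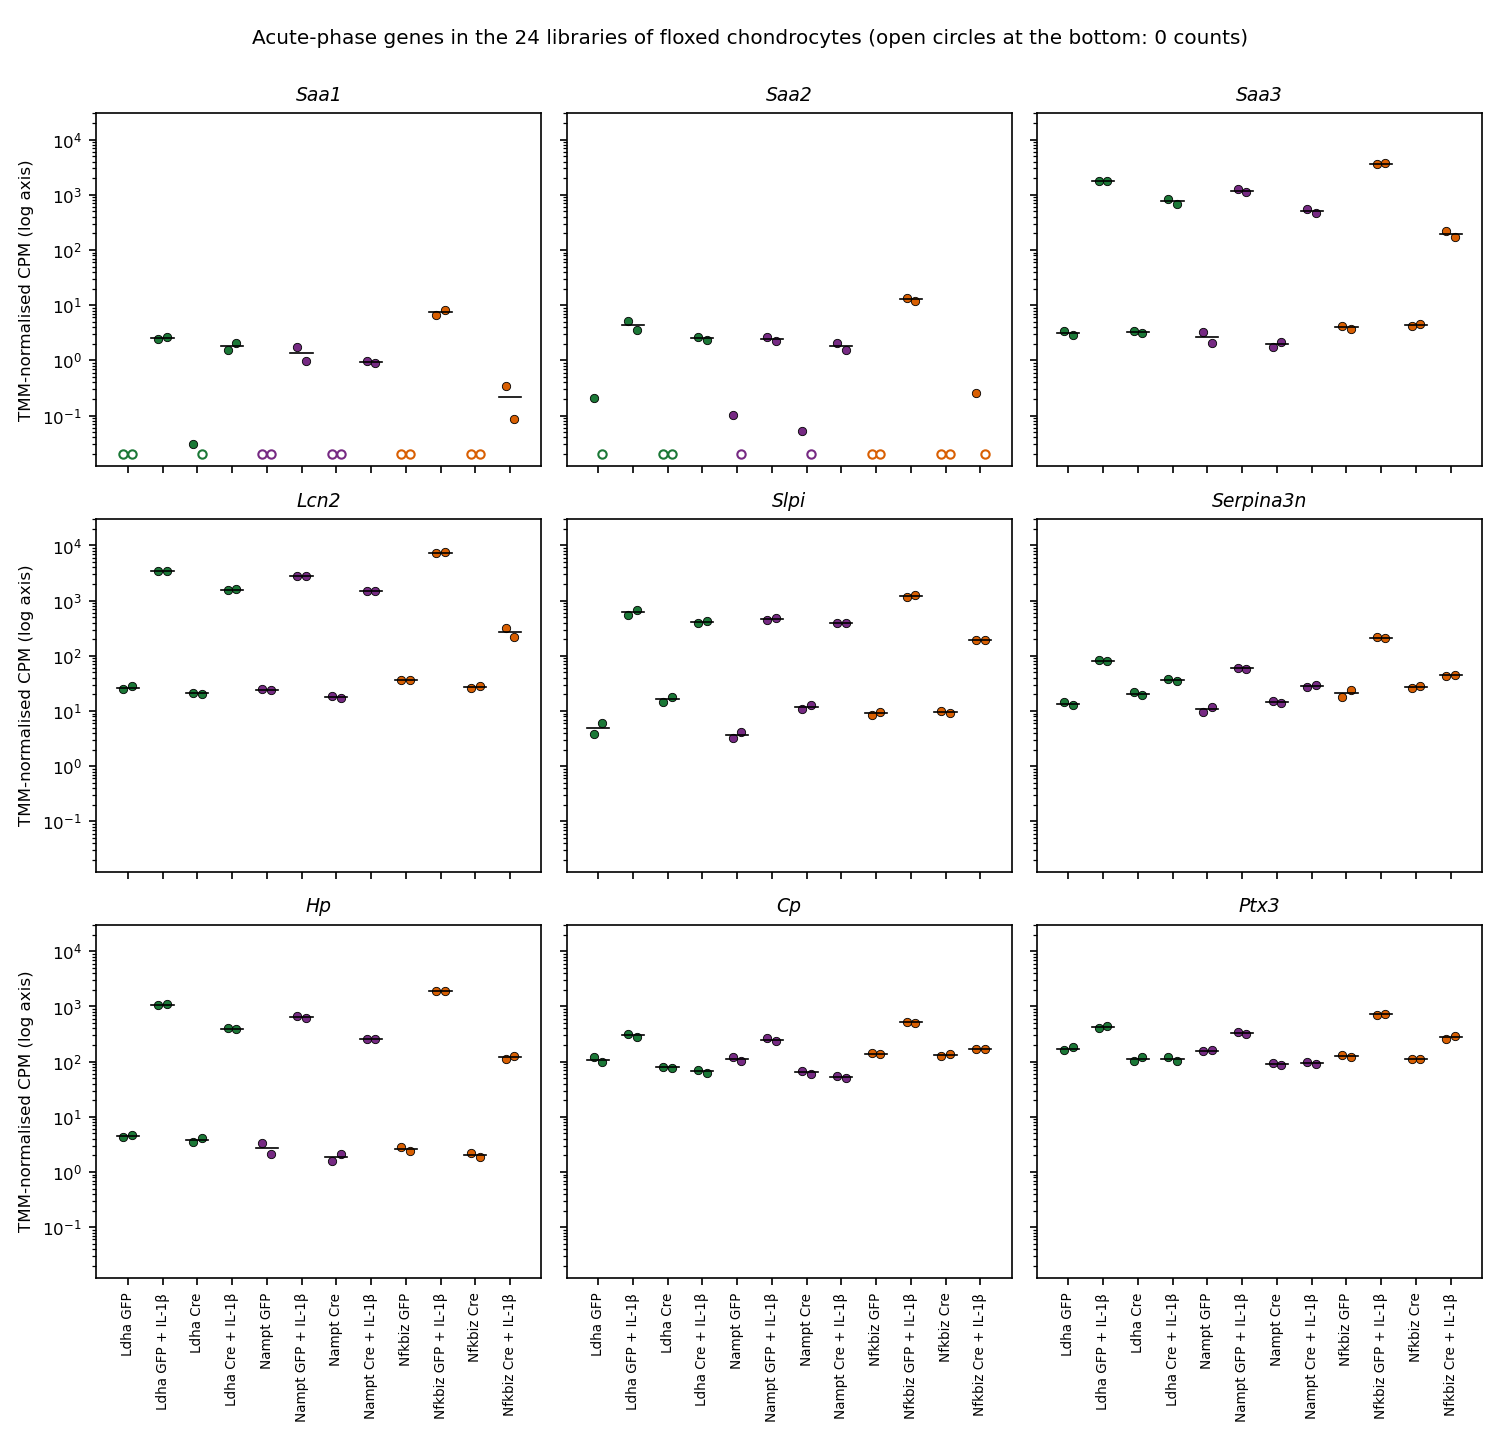
CPM (log axis) of the 9 acute-phase genes in the 24 libraries of Ldha f/f (green), Nampt f/f (purple) and Nfkbiz f/f (orange) chondrocytes, with 1 point per library, a bar at the mean of 2 libraries and open circles for 0 counts. With IL-1β, Lcn2 reached 7258 and 7490 CPM in Nfkbiz f/f GFP cultures and 318 and 222 CPM in Cre cultures, while Cp was already at 98.2 to 143 CPM and Ptx3 at 123 to 181 CPM in GFP cultures without IL-1β.

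Among the serum amyloid A genes Saa3 was by far the most abundant. Saa3 lay between 2.11 and 4.12 CPM, with a median of 3.36 CPM, in the 6 GFP libraries without IL-1β and between 1126 and 3715 CPM, with a median of 1770 CPM, in the 6 with it. The groups did not overlap, and the log2 fold change was 9.30 ± 0.14 (SE, adjusted p = 1.29e-17). Saa1 had 0 counts in all 6 libraries without IL-1β and stood between 0.964 and 8.30 CPM, median 2.55 CPM, with it. Saa2 had 0 counts in 4 of the 6 libraries without IL-1β, with 7 counts as the highest, and stood between 2.23 and 13.4 CPM, median 4.31 CPM, with it. Both passed the test (adjusted p = 1.32e-08 for Saa1 and 1.05e-09 for Saa2). Against a floor of 3 counts per library the rise of Saa1 was at least 24.3-fold in Ldha f/f, at least 11.7-fold in Nampt f/f and at least 58.2-fold in Nfkbiz f/f cells, and that of Saa2 in Nfkbiz f/f cells was at least 98.7-fold. The Saa1 and Saa2 transcripts are near copies on chromosome 7, with 784 of the 2519 windows of 50 bases in Saa1 also found in Saa2, and reads may have been lost or split between them.

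Lcn2, Hp and Cp, whose products handle iron, haem or copper, all rose, Cp by far the least. Lcn2 lay between 23.9 and 36.8 CPM, median 26.7 CPM, without IL-1β and between 2794 and 7490 CPM, median 3461 CPM, with it, and the log2 fold change was 7.21 ± 0.12 (adjusted p = 3.03e-17). Hp lay between 2.16 and 4.60 CPM, median 3.13 CPM, without and between 629.9 and 1929 CPM, median 1072 CPM, with IL-1β, and the log2 fold change was 8.40 ± 0.21 (adjusted p = 4.62e-15). Cp started from a far higher level, between 98.2 and 143 CPM with a median of 119.9 CPM, and reached 233 to 526 CPM with a median of 298 CPM. Its log2 fold change was 1.54 ± 0.08 (adjusted p = 5.92e-11), and its groups did not overlap either. Cp shares 108 exon bases with Hps3 on the opposite strand, and Ptx3 lies over Veph1, also on the opposite strand, with 0 exon bases shared. Whether counting used the strand is not given in the sources used here.

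The protease inhibitors and the pentraxin rose as well. Slpi, an inhibitor of neutrophil elastase and cathepsin G, lay between 3.25 and 9.69 CPM, median 5.15 CPM, without IL-1β and between 440.4 and 1265 CPM, median 612 CPM, with it, and the log2 fold change was 7.04 ± 0.07 (adjusted p = 3.83e-20). Serpina3n, a serine protease inhibitor, lay between 9.78 and 24.0 CPM, median 13.6 CPM, and between 57.7 and 219 CPM, median 81.3 CPM, and the log2 fold change was 2.86 ± 0.12 (adjusted p = 2.84e-12). Ptx3 lay between 123 and 181 CPM, median 158 CPM, and between 321 and 728 CPM, median 427 CPM, and the log2 fold change was 1.66 ± 0.16 (adjusted p = 1.97e-07). In none of these 3 genes did a library with IL-1β fall among those without it, and the share of all genes so separated was not counted.

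Per kilobase of counted gene length, IL-1β changed the order of the 9 genes. This length comes with the deposited counts, at 531 bases for Saa3, 2302 for Lcn2 and 9566 for Cp. It need not be that of any one transcript, and the order depends on it. In GFP cultures without IL-1β the median CPM per kilobase was highest for Ptx3 (58.9), followed by Cp (12.5), Lcn2 (11.6), Serpina3n (6.60), Saa3 (6.33), Slpi (4.37) and Hp (2.33), with Saa1 and Saa2 at a median of 0. Ptx3 stood above all others there, and from Cp to Hp the range of each gene overlapped with that of its neighbour. With IL-1β the median was highest for Saa3 (3334), followed by Lcn2 (1504), Hp (798), Slpi (519), Ptx3 (159), Serpina3n (39.4), Cp (31.2), Saa2 (7.06) and Saa1 (4.21). With IL-1β the ranges of neighbours overlapped between Saa3 and Lcn2, Lcn2 and Hp, Hp and Slpi, Serpina3n and Cp, and Saa2 and Saa1. They did not overlap between Slpi and Ptx3, Ptx3 and Serpina3n, or Cp and Saa2. These ranges pool lines that differ in level. Within each line the mean with IL-1β fell in the order Saa3, Lcn2, Hp and Slpi, at 2242, 1226, 482 and 395 CPM per kilobase in Nampt f/f cells. Saa2 also stood above Saa1 in the mean of each line.

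Each line showed the IL-1β response on its own, and the response of several genes was larger in Nfkbiz f/f cells. All 9 genes were higher in GFP cultures of Ldha f/f cells, where 14.5% of 15880 genes tested were higher, of Nampt f/f cells, where 17.7% of 16136 were higher, and of Nfkbiz f/f cells, where 15.2% of 15356 were higher. The mean level of Saa3 with IL-1β over that without was 557 in Ldha f/f, 440.2 in Nampt f/f and 926 in Nfkbiz f/f cells. For Hp these ratios were 240.1, 233.9 and 722. A test of the difference over the 24 floxed libraries, the response of Nfkbiz f/f GFP cultures minus the mean response of the other two lines, called 6 of 9 genes higher, where 2.17% of 16727 genes were higher. Hp differed by 1.60 ± 0.17 on the log2 scale (adjusted p = 1.41e-05) and Ptx3 by 1.28 ± 0.12 (adjusted p = 1.99e-06). Saa3, Serpina3n, Lcn2 and Cp differed by 0.90 ± 0.19, 0.78 ± 0.14, 0.69 ± 0.14 and 0.54 ± 0.12 (adjusted p between 0.00198 and 0.0141), whereas Slpi differed by 0.04 ± 0.22 (adjusted p = 0.976). The calls of Saa3 and Cp were lost without replicate 2 of the untreated Nfkbiz f/f GFP cultures (adjusted p = 0.0712 and 0.0787), that of Saa3 also without replicate 1 of the untreated Nampt f/f GFP cultures (adjusted p = 0.0565) and that of Cp without replicate 1 of the Nfkbiz f/f GFP cultures with IL-1β (adjusted p = 0.0851). With 30 libraries in one model 1 of the 9 genes, Ptx3, passed, where 0.188% of 17052 genes were higher. The Nfkbiz f/f libraries are all of set 2, those of the other lines are of both sets, and this fit held no term for set. The part of the set in this difference was not tested.

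Under IL-1β, the Cre cultures of Nfkbiz f/f cells held lower levels of all 9 acute-phase genes than the GFP cultures. This comparison asks which part of the cytokine response goes with an intact Nfkbiz. All 9 genes were lower (9 of 9), where 9.20% of 15356 genes were lower, with a median log2 fold change of -4.01 against -0.01 over all genes. The falls were largest for the serum amyloid A genes, Lcn2 and Hp, and smallest for Cp and Ptx3.

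Lcn2 stood at 7258 and 7490 CPM in the GFP cultures and at 318 and 222 CPM in the Cre cultures, so that 3.66% of the level was left (log2 fold change -4.78 ± 0.17, adjusted p = 2.09e-09). Saa3 went from 3595 and 3715 CPM to 221 and 174 CPM, 5.41% of the level (-4.22 ± 0.14, adjusted p = 8.3e-10). Hp went from 1929 and 1907 CPM to 114 and 126 CPM, 6.26% of the level (-4.01 ± 0.12, adjusted p = 3.26e-10). These 3 genes lost more than 90% of their level, and no Cre library came near a GFP library. Saa1 went from 136 and 192 counts to 8 and 2 counts, and Saa2 from 270 and 281 counts to 6 and 0 counts. Both passed in edgeR (adjusted p = 5.56e-05 and 1.56e-05), but the call of Saa2 was lost in DESeq2 (adjusted p = 0.377).

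The protease inhibitors were reduced less and Cp and Ptx3 least. Slpi went from 1160 and 1265 CPM to 194 and 193 CPM, 16.0% of the level (-2.66 ± 0.11, adjusted p = 4.57e-09). Serpina3n went from 219 and 209 CPM to 42.9 and 45.9 CPM, 20.8% of the level (-2.28 ± 0.13, adjusted p = 1.07e-07). Cp went from 526 and 505 CPM to 169 and 167 CPM, 32.6% of the level (-1.63 ± 0.10, adjusted p = 2.03e-07), and Ptx3 from 709 and 728 CPM to 256 and 294 CPM, 38.3% of the level (-1.40 ± 0.10, adjusted p = 1.08e-06). In these libraries the chondrocyte markers summed to 36304 and 34062 CPM in GFP cultures and to 39647 and 43042 CPM in Cre cultures, and the macrophage markers to 54.7 and 52.4 CPM against 58.1 and 55.8 CPM. The neutrophil markers summed to 12.6 and 13.5 CPM in GFP and to 7.75 and 6.58 CPM in Cre cultures, and the epithelial markers to 1.49 and 1.69 CPM against 3.18 and 4.56 CPM. The part of these shifts in the results was not tested.

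**Figure D2:**
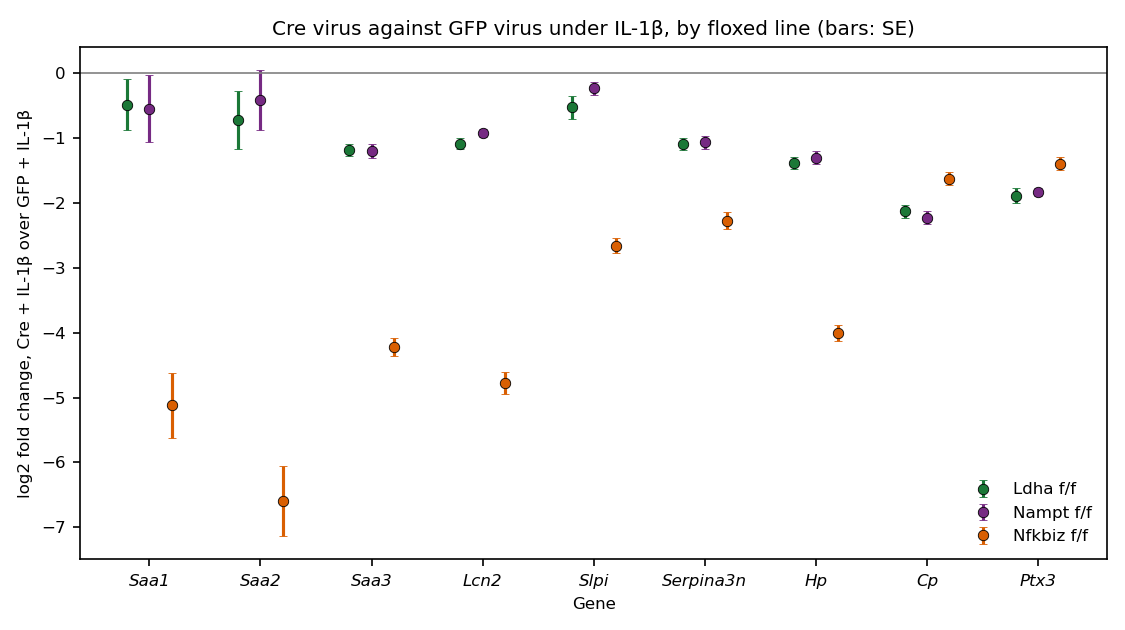
Log2 fold change of Cre over GFP cultures, both with IL-1β, for each of the 9 acute-phase genes in Ldha f/f (green), Nampt f/f (purple) and Nfkbiz f/f (orange) cells, with bars for the SE and 2 libraries per group. For Lcn2 the fold change was -1.09 in Ldha f/f, -0.92 in Nampt f/f and -4.78 in Nfkbiz f/f cells, whereas for Cp it was -2.13, -2.23 and -1.63.

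Where Ldha or Nampt was the floxed gene, the order was different. This comparison asks which part of the level under IL-1β goes with an intact Ldha or Nampt. Ldha encodes a subunit of lactate dehydrogenase, and Nampt encodes an enzyme of NAD+ salvage. In Ldha f/f cells 7 of 9 genes were lower in Cre than in GFP cultures under IL-1β, where 17.0% of 15880 genes were lower, and in Nampt f/f cells 6 of 9 were lower, where 23.4% of 16136 genes were lower. Cp and Ptx3 fell most in both lines. In Ldha f/f cells Cp went from 319.6 and 277 CPM to 70.7 and 62.6 CPM, 22.3% of the level (-2.13 ± 0.10, adjusted p = 4.22e-07), and Ptx3 from 411 and 443 CPM to 121 and 105 CPM, 26.4% of the level (-1.89 ± 0.11, adjusted p = 1.7e-06). In Nampt f/f cells Cp went from 268 and 233 CPM to 55.2 and 51.2 CPM, 21.3% of the level (-2.23 ± 0.10, adjusted p = 2.35e-08), and Ptx3 from 344 and 321 CPM to 96.8 and 89.0 CPM, 27.9% of the level (-1.84 ± 0.06, adjusted p = 6.27e-09).

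Lcn2, Saa3, Hp and Serpina3n fell in both lines, with between 37.3% and 52.6% of their level left. Lcn2 went from 3501 and 3422 CPM to 1550 and 1630 CPM in Ldha f/f cells (-1.09 ± 0.08, adjusted p = 6.71e-06) and from 2794 and 2851 CPM to 1474 and 1495 CPM in Nampt f/f cells (-0.92 ± 0.06, adjusted p = 3.45e-07). Saa3 went from 1769 and 1772 CPM to 834 and 684 CPM (-1.19 ± 0.09) and from 1255 and 1126 CPM to 555 and 477 CPM (-1.20 ± 0.11). Hp had log2 fold changes of -1.39 ± 0.09 in Ldha f/f and -1.31 ± 0.10 in Nampt f/f cells, and Serpina3n of -1.10 ± 0.09 and -1.07 ± 0.10, all with adjusted p of at most 1.26e-05. In each of these 4 genes both Cre libraries lay below both GFP libraries in both lines, an order whose share over all genes was not counted.

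Saa1 and Saa2 were not called in these lines, and Slpi was called in one of them. Saa1 stood at 2.42 and 2.68 CPM in GFP against 1.53 and 2.04 CPM in Cre cultures of Ldha f/f cells, and Saa2 at 5.10 and 3.52 CPM against 2.69 and 2.38 CPM, and neither passed (adjusted p = 0.389 and 0.256). In Nampt f/f cells they did not pass either (adjusted p = 0.412 and 0.476), at levels of at most 2.61 CPM. Slpi went from 546 and 679 CPM to 397 and 429.8 CPM in Ldha f/f cells (-0.53 ± 0.18, adjusted p = 0.0464), a call that was lost in DESeq2 (adjusted p = 0.158) and without replicate 1 or 2 of the Cre cultures or replicate 2 of the GFP cultures with IL-1β (adjusted p between 0.103 and 0.253). In Nampt f/f cells it stood at 440.4 and 491 CPM against 389 and 398 CPM (-0.24 ± 0.10, adjusted p = 0.0668), and it passed with DESeq2 (adjusted p = 0.0166), with voom (adjusted p = 0.0127) and without any one of 5 libraries (adjusted p between 0.0229 and 0.0465).

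Nfkbiz itself was lower under IL-1β in the Cre cultures of the other lines. It stood at 177 and 162 CPM in GFP and at 70.0 and 64.8 CPM in Cre cultures of Ldha f/f cells (-1.30 ± 0.10, adjusted p = 6.64e-06) and at 199.7 and 199 CPM against 67.9 and 59.5 CPM in Nampt f/f cells (-1.64 ± 0.08, adjusted p = 7.58e-08). In the Cre cultures of the Nfkbiz f/f line it was at 29.1 and 31.95 CPM. The part of Nfkbiz in the falls of the other lines was not tested. With IL-1β the chondrocyte markers summed to 29616 and 29557 CPM in GFP and 17052 and 15334 CPM in Cre cultures of Ldha f/f cells, and to 29539 and 28371 CPM against 17524 and 16585 CPM in Nampt f/f cells. The neutrophil sum went from 30.9 and 31.8 CPM to 19.2 and 19.2 CPM in Ldha f/f and from 10.9 and 13.6 CPM to 6.07 and 7.14 CPM in Nampt f/f cells. The macrophage sum went from 39.4 and 41.8 CPM to 29.7 and 30.9 CPM and from 32.5 and 28.7 CPM to 22.9 and 22.4 CPM. All 3 sums were thus lower in Cre cultures, and their part in the results was not tested.

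The Cre effects of the lines were then compared with each other over the 24 floxed libraries. The effect in Nfkbiz f/f cells minus the mean effect in Ldha f/f and Nampt f/f cells passed for all 9 genes, 7 of them lower, where 16.0% of 16727 genes were, and 2 higher, where 17.1% were. It was negative, a larger fall with Nfkbiz, for Saa2 (-5.98 ± 0.76), Saa1 (-4.56 ± 0.62), Lcn2 (-3.74 ± 0.14), Saa3 (-2.98 ± 0.16), Hp (-2.61 ± 0.13), Slpi (-2.23 ± 0.19) and Serpina3n (-1.15 ± 0.13). It was positive, a smaller fall with Nfkbiz, for Cp (0.59 ± 0.12, adjusted p = 0.000705) and Ptx3 (0.51 ± 0.11, adjusted p = 0.00171). These effects are differences of level under IL-1β and include any Cre effect present without it. The calls of Ptx3 and Serpina3n were lost with 30 libraries in one model (adjusted p = 0.179 and 0.208), and no gene passed with all 32 in one model. When the Cre effect in Nampt f/f cells was subtracted from that in Ldha f/f cells, 0 of 9 genes passed in edgeR, DESeq2 or voom. In edgeR 0.138% of 16727 genes passed. An unadjusted p of 0.05 or less was found there for 0 of the 9 and for 1695 of the 16727 genes. The differences ran from -0.30 ± 0.67 for Saa2 to 0.11 ± 0.14 for Cp, with Lcn2 at -0.15 ± 0.16 and Slpi at -0.28 ± 0.21.

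Without IL-1β the Cre cultures of the Ldha and Nampt lines held more Slpi and Serpina3n and less Cp, Ptx3 and Lcn2 than their GFP cultures. In Ldha f/f cells 2 of 9 genes were higher and 3 lower, where 3.43% and 2.09% of 15880 genes were, and in Nampt f/f cells 2 were higher and 4 lower, where 8.30% and 6.07% of 16136 genes were. In Nfkbiz f/f cells 0 of 9 passed in edgeR, DESeq2 or voom, where 0.260% of 15356 genes passed in edgeR. Of the 9, 2 had an unadjusted p of 0.05 or less in edgeR, as had 910 of the 15356 genes. Slpi stood at 3.77 and 6.14 CPM in GFP and at 14.4 and 18.0 CPM in Cre cultures of Ldha f/f cells (1.72 ± 0.22, adjusted p = 0.00226) and at 3.25 and 4.16 CPM against 10.9 and 13.1 CPM in Nampt f/f cells (1.73 ± 0.14, adjusted p = 2.02e-05). Nfkbiz f/f cells held it at 8.41 and 9.69 CPM against 10.0 and 9.32 CPM. The Cre libraries of the first 2 lines thus lay above their GFP libraries, and those of the Nfkbiz f/f line overlapped with theirs.

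Without IL-1β, markers of epithelial cells were higher in the same Cre cultures as Slpi. The sum of 6 markers, with Krt19 the most abundant of them, was 2.63 and 2.03 CPM in GFP and 14.1 and 11.6 CPM in Cre cultures of Ldha f/f cells without IL-1β, and 2.71 and 3.53 CPM against 26.5 and 28.8 CPM in Nampt f/f cells. With IL-1β it was 3.22 and 2.82 CPM against 66.9 and 64.1 CPM in Ldha f/f cells and 2.85 and 2.59 CPM against 90.9 and 94.2 CPM in Nampt f/f cells. It was at most 4.56 CPM in every library of Nfkbiz f/f cells. Slpi, by contrast, was not higher with IL-1β in Cre cultures of the Ldha and Nampt lines than in their GFP cultures. In Ldha f/f cells it stood at 546 and 679 CPM in GFP and at 397 and 430 CPM in Cre cultures. In Nampt f/f cells it stood at 440 and 491 CPM against 389 and 398 CPM. Over the 32 libraries Krt19 reached 69.4 CPM and Krt14 at most 0.326 CPM. The sum of 6 endothelial markers was higher in Cre cultures as well, over the 3 lines together. Its median was 11.1 CPM in Cre and 3.95 CPM in GFP cultures without IL-1β, and 19.0 and 5.81 CPM with it. The part of epithelial or endothelial cells in the level of Slpi was not tested.

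Serpina3n also rose with Cre virus without IL-1β, and Cp, Ptx3 and Lcn2 fell. Serpina3n stood at 14.6 and 12.7 CPM against 21.9 and 19.2 CPM in Ldha f/f cells (0.59 ± 0.10, adjusted p = 0.00785) and at 9.78 and 11.6 CPM against 15.4 and 14.2 CPM in Nampt f/f cells (0.48 ± 0.11, adjusted p = 0.0126). Cp and Ptx3 fell by 0.47 and 0.60 on the log2 scale in Ldha f/f cells and by 0.81 and 0.80 in Nampt f/f cells. Lcn2 fell by 0.35 and 0.44 in these lines, and Hp fell by 0.68 in Nampt f/f cells (adjusted p = 0.0332). The count in Ldha f/f cells rested on single libraries, since 1 gene of the 5, Slpi, was called without replicate 1 of the Cre cultures and 3 without replicate 2 of the Cre or of the GFP cultures. The call of Lcn2 there was lost with voom (adjusted p = 0.119) and without any one of 7 of the 8 libraries. In Nampt f/f cells the calls of Serpina3n and Hp were lost without replicate 1 of the untreated GFP cultures (adjusted p = 0.131 and 0.596) or of the untreated Cre cultures (adjusted p = 0.0809 and 0.242), and the log2 fold change of Hp was then -0.26 or -0.46.

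The response to IL-1β was then followed within Cre cultures. In Ldha f/f cells 7 of 9 genes were higher with IL-1β, where 19.5% of 15880 genes were, in Nampt f/f cells 7 of 9, where 24.3% of 16136 were, and in Nfkbiz f/f cells 8 of 9, where 11.7% of 15356 were. Cp and Ptx3 were the genes without a call in the first 2 lines, and Saa2, with 6 and 0 counts with IL-1β, in the third. In Cre cultures of Ldha f/f cells Cp stood at 81.4 and 76.1 CPM without and 70.7 and 62.6 CPM with IL-1β (-0.18 ± 0.10, adjusted p = 0.209), and Ptx3 at 105 and 122 CPM against 121 and 105 CPM (0.06 ± 0.11, adjusted p = 0.731). In those of Nampt f/f cells Cp stood at 68.5 and 59.0 CPM against 55.2 and 51.2 CPM (-0.20 ± 0.09, adjusted p = 0.11), and Ptx3 at 93.3 and 88.6 CPM against 96.8 and 89.0 CPM (0.09 ± 0.06, adjusted p = 0.278). In Nfkbiz f/f Cre cultures both genes still passed, Cp at 127 and 139 CPM against 169 and 167 CPM (0.35 ± 0.09, adjusted p = 0.0204) and Ptx3 at 109.8 and 110.2 CPM against 256 and 294 CPM (1.33 ± 0.10, adjusted p = 2.35e-06). The call of Cp was lost without replicate 1 of the Nfkbiz f/f Cre cultures without IL-1β (adjusted p = 0.108), and in Nampt f/f Cre cultures Cp passed as lower without replicate 2 of the untreated GFP cultures (-0.25, adjusted p = 0.0288) or replicate 1 of the GFP cultures with IL-1β (-0.25, adjusted p = 0.0432). With the replicate number as a block Cp passed as lower with IL-1β in Cre cultures of Ldha f/f (-0.18, adjusted p = 0.0284) and of Nampt f/f cells (-0.20, adjusted p = 0.0013).

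**Figure D3:**
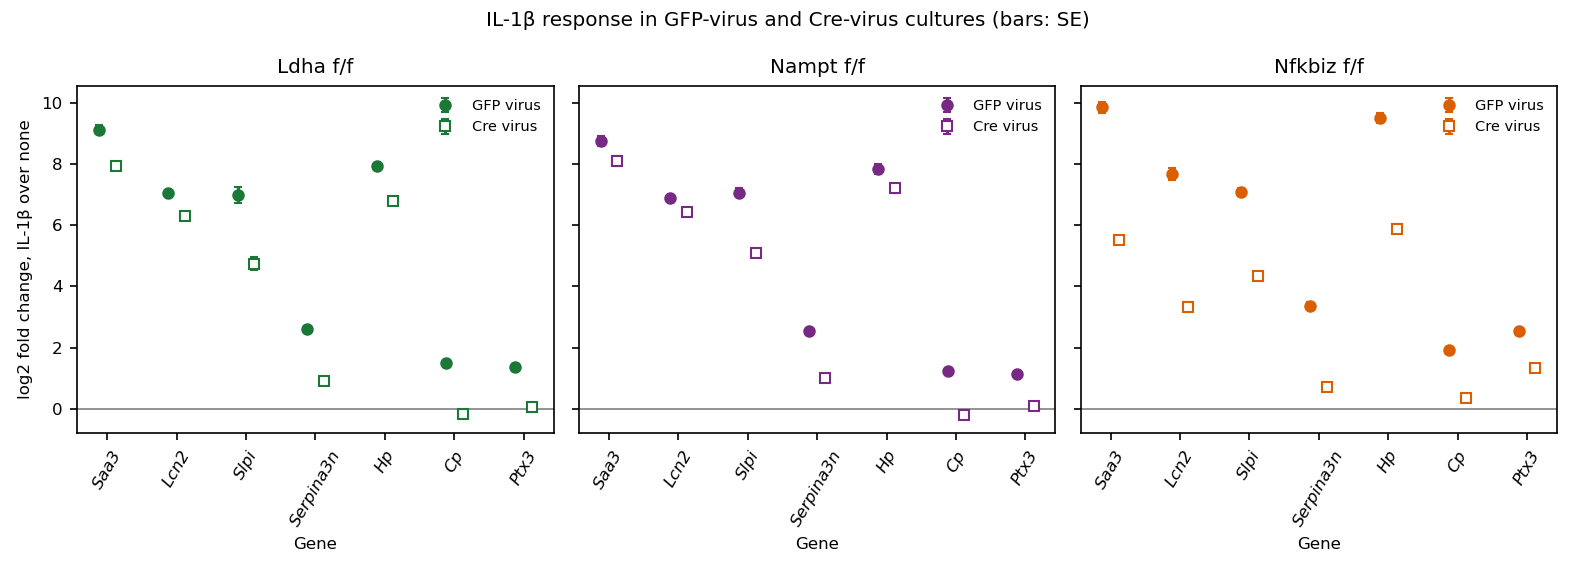
Log2 fold change with IL-1β over without it in GFP cultures (filled circles) and Cre cultures (open squares) of each floxed line, for the 7 genes with counts in every library, with bars for the SE and 2 libraries per group. Cp and Ptx3 lie near 0 in Cre cultures of Ldha f/f and Nampt f/f cells, at -0.18 and 0.06 and at -0.20 and 0.09, and Lcn2 drops from 7.68 to 3.32 in Nfkbiz f/f cells.

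Lcn2, Hp, Saa3, Slpi and Serpina3n were called higher with IL-1β in the Cre cultures of every line. In Nfkbiz f/f Cre cultures Lcn2 stood at 25.8 and 28.6 CPM without and 318 and 222 CPM with IL-1β (3.32 ± 0.17, adjusted p = 8.3e-08), and Hp at 2.22 and 1.86 CPM against 114 and 126 CPM (5.89 ± 0.15, adjusted p = 1.09e-10). Saa3 rose from 4.12 and 4.50 CPM to 221 and 174 CPM (5.53 ± 0.16) and Slpi from 10.0 and 9.32 CPM to 194 and 193 CPM (4.34 ± 0.12). The ratio of the mean level with IL-1β to that without was 9.92 for Lcn2, 58.9 for Hp, 45.8 for Saa3 and 20.1 for Slpi, where it was 203, 722, 926 and 134 in GFP cultures of this line. Serpina3n kept the smallest response of the called genes in Ldha f/f and Nampt f/f Cre cultures (0.91 ± 0.09 and 0.99 ± 0.10), with 38.5 and 35.5 CPM against 21.9 and 19.2 CPM in the first. Saa1 had 0 counts without and 8 and 2 counts with IL-1β in Nfkbiz f/f Cre cultures (adjusted p = 0.0417), a call lost with voom (adjusted p = 0.0977). It was also lost without either untreated Cre library, either GFP library with IL-1β or replicate 1 of the Cre cultures with IL-1β (adjusted p between 0.0659 and 0.154).

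A test of the difference between the IL-1β responses of Cre and GFP cultures gave smaller responses in Cre cultures wherever it passed. It passed for 7 of 9 genes in Ldha f/f cells, where 5.60% of 15880 genes had a smaller response, for 5 of 9 in Nampt f/f cells, where 9.98% of 16136 did, and for 7 of 9 in Nfkbiz f/f cells, where 3.50% of 15356 did. In Nfkbiz f/f cells the difference was largest for Lcn2 (-4.36 ± 0.22, adjusted p = 4.63e-07) and Saa3 (-4.34 ± 0.22, adjusted p = 4.54e-07), followed by Hp (-3.63 ± 0.21), Slpi (-2.75 ± 0.16), Serpina3n (-2.65 ± 0.18), Cp (-1.56 ± 0.13) and Ptx3 (-1.19 ± 0.14). In Ldha f/f cells it was largest for Slpi (-2.25 ± 0.29, adjusted p = 0.00102), Serpina3n (-1.69 ± 0.13, adjusted p = 6.06e-05) and Cp (-1.66 ± 0.14, adjusted p = 0.000102), and it was -1.29 ± 0.15 for Ptx3, -1.21 ± 0.16 for Saa3, -1.13 ± 0.14 for Hp and -0.74 ± 0.12 for Lcn2. In Nampt f/f cells it was -1.97 ± 0.17 for Slpi, -1.55 ± 0.14 for Serpina3n, -1.42 ± 0.13 for Cp, -1.03 ± 0.09 for Ptx3 and -0.48 ± 0.08 for Lcn2. Saa3 (-0.65 ± 0.23, adjusted p = 0.0671) and Hp (-0.63 ± 0.21, adjusted p = 0.0584) did not pass there, but both did without replicate 1 of the untreated GFP cultures (-1.07, adjusted p = 0.00844, and -1.06, adjusted p = 0.00507), and Hp also without replicate 1 of the untreated Cre cultures (-0.85, adjusted p = 0.0417) and with DESeq2 (adjusted p = 0.0145). With 30 libraries in one model 2 of 9 genes passed in Ldha f/f, 2 in Nampt f/f and 6 in Nfkbiz f/f cells. In that model 2.15%, 4.0% and 1.71% of 17052 genes had a smaller response in these lines. With all 32 in one model 0 of the 9 passed in each. Most of the difference for Slpi in Ldha f/f and Nampt f/f cells lay in its level without IL-1β, given above. The levels of Cp and Ptx3 without IL-1β also fell with Cre virus in these 2 lines. For both genes the difference of responses in Nfkbiz f/f cells lay between those of the other lines. It was -1.56 against -1.66 (Ldha) and -1.42 (Nampt) for Cp, and -1.19 against -1.29 and -1.03 for Ptx3. Whether these differences vary between lines was not tested.

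Wild-type chondrocytes were sequenced to ask what the LDHA inhibitor FX11 does to the response. In set 1 all 9 genes were higher in the library labelled IL-1β than in the untreated library. All 9 were lower in the library with IL-1β and FX11 than in that with IL-1β alone. These are single libraries with no replicate within the set, and the share of all genes that moved in these directions was not counted. Saa1 had 0 counts in the untreated library, 26.5 CPM with IL-1β and 8.67 CPM with both, and Saa2 stood at 0.0602, 51.3 and 15.0 CPM, so that 32.8% and 29.3% of the IL-1β level was left with FX11. Serpina3n stood at 72.2, 1211 and 669.8 CPM (55.3% left) and Ptx3 at 357, 1112 and 645 CPM (58.0% left). The other 5 genes kept between 75.97% and 87.5%, among them Lcn2 at 42.6, 11140 and 8792 CPM and Saa3 at 3.40, 6740 and 5438 CPM. With FX11 alone the library of set 1 held Lcn2 at 56.2 CPM, Saa3 at 2.53 CPM and Serpina3n at 52.3 CPM.

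**Figure D4:**
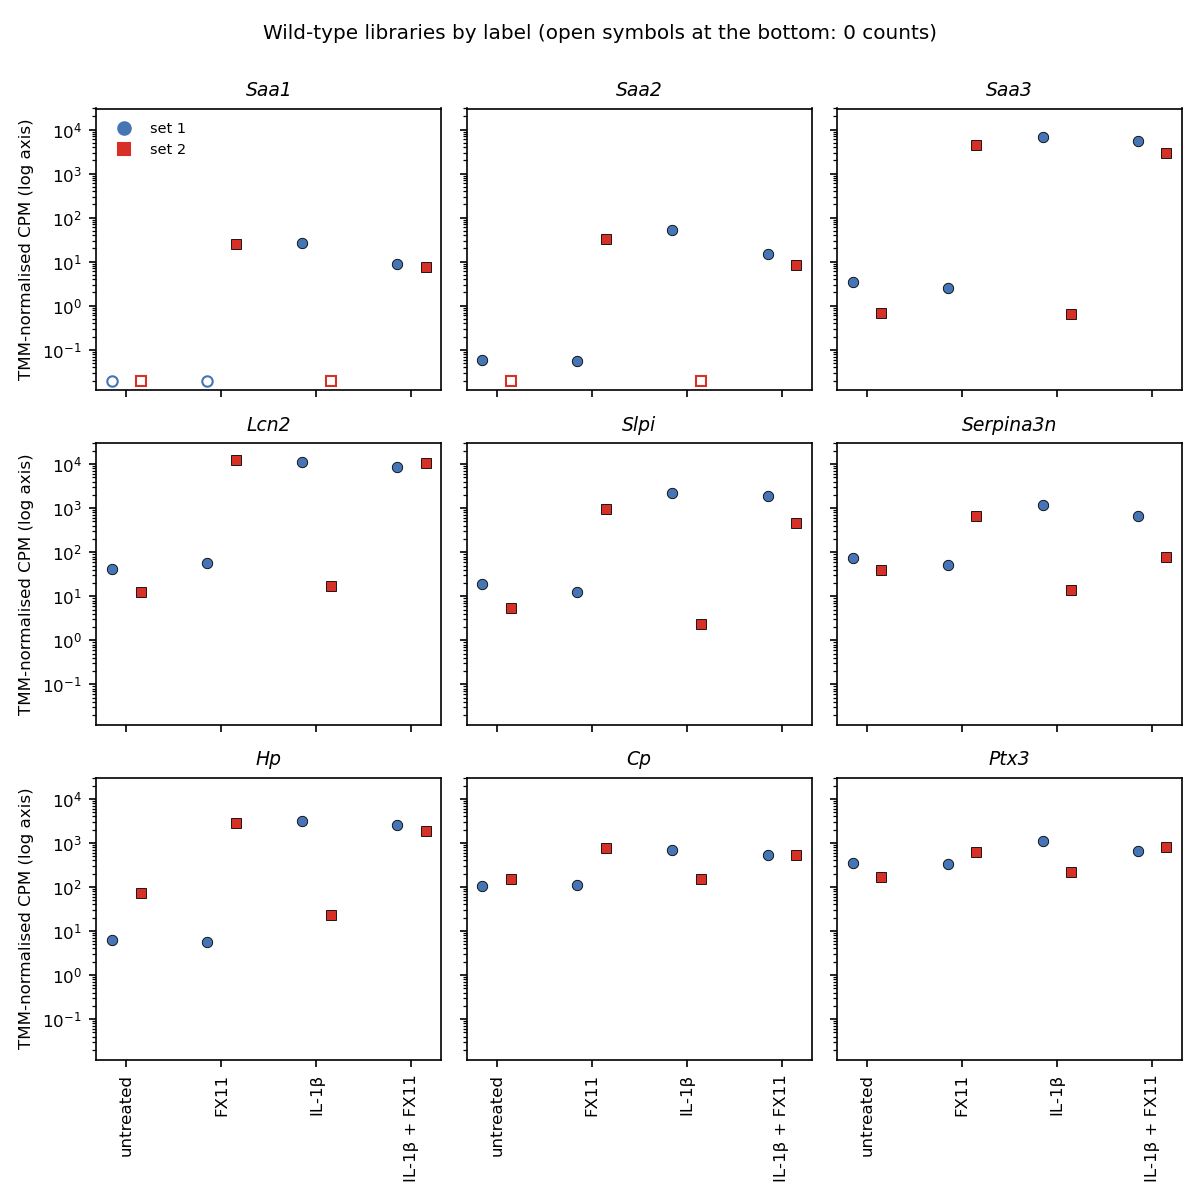
CPM (log axis) of the 9 acute-phase genes in the 8 wild-type libraries by label, with circles for set 1, squares for set 2 and open symbols for 0 counts. In set 2 the library labelled FX11 held Lcn2 at 12645 CPM and the library labelled IL-1β held it at 17.3 CPM, against 56.2 and 11140 CPM for the same labels in set 1.

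Set 2 had another order by label. Lcn2 stood at 12.4 CPM in the untreated library, 12645 CPM where the label was FX11, 17.3 CPM where it was IL-1β and 10410 CPM where it was both. Serpina3n stood at 38.6, 663, 14.0 and 79.3 CPM in the same order and Hp at 71.2, 2773, 23.3 and 1833 CPM. Ptx3 stood at 169, 614, 222 and 818 CPM, so that it was higher with both agents than in the library labelled FX11, whereas the other 8 genes were lower. Whether the libraries labelled FX11 and IL-1β were exchanged in this set was not tested. The untreated library of set 2 thus held more Hp than any other library without IL-1β that followed its label, where the median was 3.38 CPM.

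With the labels as given, no gene of the 9 passed in the 4 wild-type comparisons in edgeR, and 0 of 15461 genes passed (0% called), with 860 genes at an unadjusted p of 0.05 or less for IL-1β plus FX11 against untreated, 153 for IL-1β, 102 for FX11 under IL-1β and 68 for FX11 alone. DESeq2 called 3 of the 9 genes for IL-1β plus FX11, 1 for IL-1β, 0 for FX11 under IL-1β and 1 for FX11 alone, and voom called 0 in each. The share of all genes called with DESeq2 is not given here. The comparison of IL-1β plus FX11 with untreated cells does not use the 2 libraries as members of its groups, only for the spread, and gave log2 fold changes from 1.48 ± 0.77 for Ptx3 to 10.97 ± 4.71 for Saa3. Without both libraries 0 of the 9 genes passed in edgeR in this comparison. Its log2 fold changes then ran from 1.48 for Ptx3 to 11.04 for Saa1, a gene with 0 counts in untreated cells. For IL-1β, whose group then held 1 library, none of the 9 was called, and the log2 fold changes ran from 2.07 for Ptx3 to 12.73 for Saa1. With the other 30 libraries in one model, which takes the spread from all lines, all 9 genes were higher with IL-1β plus FX11, where 8.09% of 17052 genes were, and all 9 with IL-1β, where 8.84% were. In that model 0 of 9 passed for FX11 under IL-1β, where 0.751% of genes were called, and 0 passed for FX11 alone, where 0.211% were called. Each of these comparisons then had a group of 1 library. The log2 fold changes ran from -2.14 for Saa2 to -0.22 for Lcn2 for FX11 under IL-1β. For FX11 alone they ran from -2.77 for Hp to 1.02 for Lcn2. DESeq2 and voom were not run without the 2 libraries.

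Other acute-phase genes were measured beside the 9, from a list of 26. In GFP cultures 13 of the 26 were tested, and 10 were higher and 2 lower with IL-1β, where 28.0% of all genes tested were higher and 28.3% lower, with a median log2 fold change of 2.24 against -0.01 over all genes. The largest log2 fold change was that of Saa4 (9.76 ± 0.47, adjusted p = 4.89e-09). Saa4 stood at 0 CPM in all 6 GFP libraries without IL-1β and between 2.93 and 7.61 CPM with it. Its value thus rests on a level of 0 and cannot be ranked against the others. Large rises from a measured level were those of C3, the central complement component (8.19 ± 0.06, adjusted p = 9.65e-22), and Steap4, a metalloreductase (7.82 ± 0.27, adjusted p = 3.55e-13). Lbp, which binds lipopolysaccharide, followed (7.25 ± 0.16, adjusted p = 7.92e-16). C3 went from 1.34 to 3.45 CPM without IL-1β to between 375 and 932 CPM with it. Crp and Apcs, the classical short pentraxins of the liver, had 0 counts in all these libraries. Under IL-1β, 11 of 16 list genes tested were lower in Cre than in GFP cultures of Nfkbiz f/f cells, 11 of 17 in Ldha f/f and 11 of 14 in Nampt f/f cells, where 9.20%, 17.0% and 23.4% of all genes were lower, and none was higher in any line. With Nfkbiz the largest falls were those of Steap4 (-5.12 ± 0.20) and Orm1 (-5.04 ± 0.71), the latter from at most 2.58 CPM.

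The genes of the inducing pathway moved in the same comparisons. Of 26 genes of IL-1, NF-κB, C/EBP and IL-6 signalling, 22 were higher and none lower with IL-1β in GFP cultures, against the same 28.0% and 28.3% of all genes, led by Il6 (6.44 ± 0.15), Zc3h12a, an RNase that degrades cytokine transcripts (4.27 ± 0.11), Bcl3, another nuclear IκB protein (3.90 ± 0.12), and Lif (3.71 ± 0.08). Under IL-1β, 15 were lower and 1 higher in Nfkbiz f/f Cre cultures, 13 lower and 3 higher in those of Ldha f/f cells, and 13 lower and 6 higher in those of Nampt f/f cells. Of all genes, 8.16%, 16.9% and 24.95% were higher in these lines and 9.20%, 17.0% and 23.4% lower. Il6, the main inducer of acute-phase genes in liver, fell by 5.36, 2.02 and 2.85 on the log2 scale in these lines, and Cebpd, a C/EBP factor, fell by 2.51, 1.53 and 1.79. Il6 stood between 22.3 and 33.4 CPM in GFP and between 0.635 and 5.73 CPM in Cre cultures with IL-1β, and Cebpd between 217 and 392 CPM and between 63.1 and 91.0 CPM.

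Most relatives of the 9 genes were too low to be tested, and the counts below stand against the 28.0% of genes higher and 28.3% lower with IL-1β in GFP cultures. Of 15 genes of the Serpina3 and Serpina1 clusters 2 were tested in GFP cultures and Serpina3g was higher with IL-1β (3.26 ± 0.20). No other gene of the whey acidic protein family of Slpi was tested there. Under IL-1β Wfdc2 was higher in Cre cultures of Ldha f/f (4.09 ± 0.31) and Nampt f/f cells (4.91 ± 0.26). It was lower in those of Nfkbiz f/f cells (-2.24 ± 0.65), a fall from a low level. With IL-1β Wfdc2 was at most 1.44 CPM in GFP libraries and between 0.127 and 21.4 CPM in Cre libraries of the 3 lines. Of 10 other pentraxins and lipocalins 3 were tested in GFP cultures and 2, Nptx2 (1.41 ± 0.23) and Nptxr (0.52 ± 0.06), were higher. Of 19 receptors and partners 11 were tested, with 6 higher, among them Mmp9, whose product forms a complex with lipocalin-2 (2.86 ± 0.17), and the receptors Tlr2 (2.45 ± 0.13) and Tlr4 (1.24 ± 0.06), and 2 lower, among them Lrp2, a receptor that takes up lipocalin-2. Of 9 negative acute-phase genes 3 were tested, and Trf, which encodes transferrin, was higher (1.49 ± 0.22) and Igfals lower (-0.97 ± 0.20).

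By their pattern over the 32 libraries, Cp and Ptx3 were among each other's 3 nearest genes. Likeness was the root mean square difference of log2 CPM, each gene centred on its own mean, over 12266 genes and 32 libraries that include both libraries against their labels. Nearest to Cp were Gbe1 (0.417), Ptx3 (0.450) and Gna14 (0.450), and nearest to Ptx3 were Lox (0.439), Cp (0.450) and Adamts5 (0.466). Nearest to Lcn2 were Saa1 (0.731), Slpi (0.971) and Cxcl2 (0.988), and nearest to Hp were C3 (0.658), Steap4 (0.673) and Lbp (1.07). Saa3 was nearest to Mmp3 (0.936), Cxcl1 (0.991) and Nos2 (1.02), Slpi to Lbp (0.965), and Serpina3n to Cyp7b1 (0.693), Cd14 (0.707) and Camp (0.739), the last a neutrophil marker. Saa1 was nearest to Lcn2 and Saa2, and Saa2 to Saa1 (0.815). The measure grows with the spread of the gene itself, so that its size cannot be compared between the 9 genes.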

How the data were processed

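RNA was sequenced from 32 libraries depleted of ribosomal RNA. The authors aligned reads with STAR to Ensembl release 76 (GRCm38), and the deposited counts are whole reads per gene from featureCounts, with no strand setting given in the sources used here; their processing notes give versions 2.0.4b and 1.45, and the study's methods give another version of each tool. The deposited CPM values are those counts scaled by the library total, and the deposited RPKM values are also divided by gene length, as the authors' columns bore out in 32 of 32 libraries; both columns were only checked.

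From the counts, 355 ribosomal RNA genes were left out, and genes above 1 CPM in at least 1 library of a fit (5 for 6 against 6) were tested with edgeR 4.0.16 in R 4.3.3 (quasi-likelihood, TMM factors, 2-sided, Benjamini-Hochberg adjusted p of 0.05 or less). ± is the SE. Each line was fitted on its 8 libraries, and comparisons between lines on all 24 floxed libraries. Adjusted p are over all genes tested. The fits were first tested on simulated data. Library totals ran from 15830658 to 39959888, and no 2 libraries were identical.

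Alternatives were DESeq2 1.42.0, voom with quality weights (limma 3.58.1), RLE factors, other filters, a replicate block, each library left out, and all 32 libraries in one model; after seeing the data, models without the 2 wild-type libraries that go against their labels were added. The 9 genes and the gene lists were chosen with earlier results of these data known. Named beside the 9 are the deleted genes, up to 4 genes of a list with the largest called change, and the 3 genes of most similar pattern; Nfkbiz in the other lines, and the levels of markers, were added after their values were seen. Folds against 0 counts use a floor of 3 counts per library.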

Additional observations from a re-analysis of the deposited data

Results flagged for a closer look

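These results stand here because a test of the difference between lines passed. For the Cre effect under IL-1β, Nfkbiz f/f cells minus the mean of Ldha f/f and Nampt f/f cells, the log2 difference was -5.98 for Saa2, -4.56 for Saa1, -3.74 for Lcn2, -2.98 for Saa3, -2.61 for Hp, -2.23 for Slpi and -1.15 for Serpina3n, and it was 0.59 for Cp and 0.51 for Ptx3. For the IL-1β response of GFP cultures, taken in the same way, it was 1.60 for Hp, 1.28 for Ptx3, 0.90 for Saa3, 0.78 for Serpina3n, 0.69 for Lcn2 and 0.54 for Cp. All Nfkbiz f/f libraries are of one set and those of the other lines are of both. The fits of these differences held no term for set, and its part was not tested.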

How the results depend on the processing

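Counts of the 9 genes called moved little with the test, scaling or filter and more with the libraries in the model. With all 32 libraries in one model, which takes the spread also from the wild-type libraries that go against their labels, 4 genes were called for IL-1β in GFP cultures of Ldha f/f and 4 of Nampt f/f cells, 2 and 2 for Cre under IL-1β, 0 and 0 for Cre without IL-1β, 3 and 4 for IL-1β in Cre cultures and 0 and 0 for the difference of responses. In Nfkbiz f/f cells these counts were 0 for Cre under IL-1β, 0 for IL-1β in Cre cultures and 0 for the difference of responses, 0 passed in both comparisons of Nfkbiz f/f with the other lines, and 6 passed for IL-1β plus FX11 in wild type. Without those 2 libraries the count was 4 for Cre under IL-1β in Ldha f/f cells, where 11.1% of 17052 genes were lower. For Cre without IL-1β it was 0 in Ldha f/f cells, where 1.36% were called, and 2 in Nampt f/f cells, where 1.29% were lower. For the difference of responses it was 2 and 2, where 2.15% and 4.0% were lower. It was 9 for IL-1β plus FX11 in wild type, where 8.09% were higher. For the line difference in the IL-1β response it was 1, where 0.188% were higher. DESeq2 called 3 genes for IL-1β plus FX11, 1 for IL-1β and 1 for FX11 alone in wild type, and without a filter 1 gene was called for Cre alone in Nfkbiz f/f cells. Leaving out single libraries gave 1 to 4 genes for Cre without IL-1β in Ldha f/f cells. The share of all genes called is not given here for the 32-library model, DESeq2, the fit without a filter or left-out libraries. In those settings a change in the 9 genes therefore cannot be told from one in all genes. The cause of these changes was not tested.

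Uncalled differences near 0 turned sign. Ldha minus Nampt, Saa3 was -0.01 with filterByExpr and -0.04 without a filter, and with single libraries left out it ran from -0.11 to 0.14, Saa1 from -0.44 to 0.42, Ptx3 from -0.13 to 0.03 and Serpina3n from -0.11 to 0.05. Ptx3 with IL-1β in Ldha f/f Cre cultures ran from -0.06 to 0.19. The line difference of Slpi in GFP cultures was -0.01 with voom and ran from -0.15 to 0.21. RLE factors changed none of 151 calls of single genes. With the replicate number as a block, counts stayed within 1.5 times: 7 genes (Ldha), 7 (Nampt) and 9 (Nfkbiz) for Cre under IL-1β. Cp then passed as lower with IL-1β in Cre cultures of Ldha f/f (adjusted p = 0.0284) and Nampt f/f cells (0.0013). The numbers name a library set or nothing, and deviations of same-numbered libraries correlated between 0.318 and 0.534 in these lines and between -0.189 and 0.0903 in Nfkbiz f/f cells. Groups of 2 libraries limit every test, and the levels of Saa1 and Saa2 rest on at most 281 counts in the floxed libraries.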
